A study of Sus scrofa with 12 samples.

Results

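Complexes II to V are the part of the mitochondrial respiratory chain that carries electrons from succinate and ubiquinol to oxygen and turns the resulting proton gradient into ATP. The genes described here were taken from the deposited expression table by symbol: succinate dehydrogenase and its assembly factors (SDHA to SDHD, SDHAF), the cytochrome bc1 complex (UQCR, CYC1 and the UQCC factors), cytochrome c oxidase (COX followed by a digit) and ATP synthase (ATP5). The rule found 53 of the 18060 genes listed, of which 7 belong to complex II, 11 to complex III, 22 to complex IV and 13 to complex V. No measured value entered the choice.

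The cells were primary follicular granulosa cells of Duroc × Yorkshire × Landrace sows, taken from antral follicles and grown in DMEM/F-12 with 15% serum. They spent 12 h in hypoxia (1% O2, 5% CO2) or in normoxia (21% O2, 5% CO2). There were 3 biological replicates per condition, numbered 1 to 3. From each came a library of input mRNA, fragmented after poly(A) selection, and one from the fragments bound by an antibody to the methylated mRNA base m6A (N6-methyladenosine). The labels name 1 batch and do not say whether different sows gave the replicates, so p-values measure the spread between these samples, which may be technical.

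Complex II oxidizes succinate in the tricarboxylic acid cycle, complex III passes electrons to cytochrome c, and complex IV reduces oxygen to water with them. Complex V lets protons flow back through a membrane ring of c subunits, and the rotation drives ATP synthesis in its head. Subunits of complexes III to V that the mitochondrial genome codes for are not analysed here. In mammalian cells, subunit 4 of complex IV comes from COX4I1 or COX4I2, and COX4I2 is known as the isoform of hypoxic cells and of lung.

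Gene levels are FPKM, which scale fragments by a transcript's length and by the library's size, so levels of different genes can be set side by side within a library. Fold changes come from limma on log2(FPKM + 1), fitted over the 10196 genes that reached 1 FPKM in 3 or more of the 6 input libraries, and a gene is called at a Benjamini-Hochberg adjusted p under 0.05 over all of them. The median log2 fold change of all tested genes was -0.26, and a median-ratio scaling of the libraries moved it by 0.26 to -0.01. Of the 53 members 52 were tested, SDHAF4 and COX16 only through their normoxia values, so that a difference in them was part of passing the filter; the testis isoform gene COX7B2 was too low, with 0, 0.0409 and 0 FPKM in hypoxia libraries 1, 2 and 3, against 0.470, 0 and 0.377 FPKM in normoxia. The 14 granulosa markers, all listed, summed to 133 to 163 FPKM in hypoxia and 133 to 146 FPKM in normoxia. Of 11 tested, FSHR and AMHR2 were lower (-0.72 and -1.07) and INHBB was higher (0.90). AMHR2 had 0.472, 0.521 and 1.36 FPKM in hypoxia libraries 1, 2 and 3, against 1.93, 2.66 and 3.58 FPKM in normoxia. It passed the filter only through its normoxia values, so no weight is placed on its call. The other 8 did not pass, among them FOXL2 (-0.51), NR5A1 (-0.29), INHA (-0.02), INHBA (-0.10) and FST (0.54). CYP19A1 and AMH had means of at most 0.233 FPKM in each condition, and were highest in normoxia library 3 (0.402 and 0.353 FPKM). Theca markers summed to 0.734 to 1.33 FPKM in hypoxia and 1.88 to 2.03 FPKM in normoxia, with 3 of 4 listed. Fibroblast and smooth muscle markers, 6 of 6 listed and 0 of them at 0, summed to 3152 to 4345 FPKM in hypoxia and 6983 to 8889 FPKM in normoxia, mostly from ACTA2. Within that list ACTA2 and DES were called lower (log2 fold change -1.14 and -0.65), PDGFRA was called higher (0.84, limma adjusted p = 0.0121), and DCN, LUM and MYH11 did not pass (-0.20, -0.30 and -0.70). Endothelial markers, 4 of 5 listed, summed to 2.88 to 3.16 FPKM in hypoxia and 6.28 to 6.93 FPKM in normoxia, nearly all from PECAM1, with TEK at or near 0. The part of these markers in the results was not tested. In bulk RNA, fewer cells of a type and less RNA per cell cannot be told apart.

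Hypoxia library 3 stood apart from the others. Its median absolute log2 deviation from the mean of the other hypoxia libraries was 0.497 over the tested genes, against 0.158 and 0.365 for hypoxia libraries 1 and 2 and 0.106 to 0.182 for the normoxia libraries. Counts are therefore given with and without it.

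Of the 52 tested members, 18 were lower and 1 was higher in hypoxia. COX16 is among the 18, and so in the counts of complex IV and of the factors below. It passed the filter only through its normoxia values. The share lower was 34.6%, against 21.1% of all tested genes (5.4% of which were higher), and the members' median log2 fold change was -0.37, against -0.26. Values of the 3 hypoxia libraries lay wholly below those of the 3 normoxia libraries for 27 members (51.9%, against 34.9% of all tested genes) and wholly above them for COX4I2 alone (9.25% of all tested genes). COX16 and SDHAF4, which passed the filter only through their normoxia values, are among the 27. Without hypoxia library 3 the same 18 members and 7 more were lower (25 of 52, where 31.2% of all tested genes were lower), and the added genes were SDHAF2, UQCRFS1, UQCC2, COX4I1, COX8A, ATP5F1D and ATP5MC2. With hypoxia library 1 or 2 left out the count was 11 or 13, and with normoxia library 1, 2 or 3 left out it was 7, 6 or 10. Calls in either direction over all tested genes were 1420 or 2899 and 1546, 1132 or 1394 in these settings, against 2699 with every library. After median-ratio scaling, 6 members were lower (8.88% of all tested genes) and 1 higher (8.07%). The lower ones were UQCRC1, CYC1, UQCRQ, COX10, COX17 and ATP5MC1. Of the members that were not called, 29 had a negative log2 fold change, and 17 of them turned positive after scaling, so no direction is read from them.

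By complex, the members called lower were 4 of 7 in complex II, 4 of 11 in complex III, 5 of 21 in complex IV and 5 of 13 in complex V. Over all tested genes 21.1% were lower, so the share in complex IV was near the background. After scaling these counts were 0, 3, 2 and 1 (8.88% of all tested genes), and without hypoxia library 3 they were 5, 6, 7 and 7 (31.2%). The median log2 fold changes of the tested members were -0.54, -0.48, -0.25 and -0.46, against -0.26 over all tested genes. The call reached 13 of 36 tested subunit genes (median -0.41) and 5 of 16 assembly and other factors (median -0.28).

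**Figure D1:**
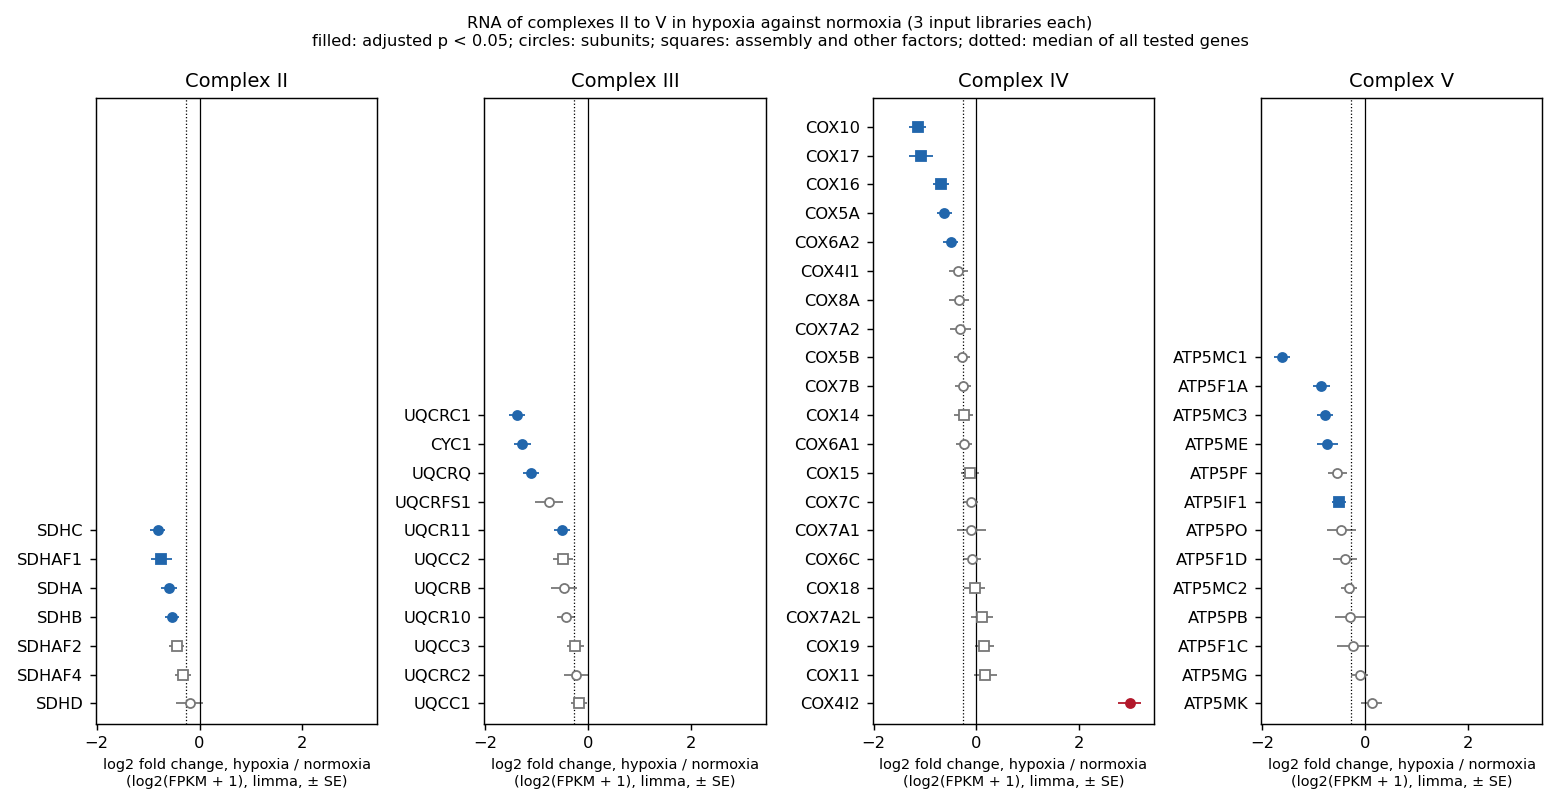
Log2 fold change of each of the 52 tested members on the log2(FPKM + 1) scale (x axis, hypoxia over normoxia, bars are the limma SE) by complex, with filled symbols for adjusted p under 0.05, circles for subunits and squares for assembly and other factors. Members left of the dotted line lie below the median of all tested genes, -0.26; COX4I2 stands alone at 2.98.

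The summed levels of the complexes are described here without a test. The 11 members of complex III summed to 292, 264 and 242 FPKM in hypoxia libraries 1, 2 and 3, against 476, 487 and 479 FPKM in normoxia, or 55.3% of the normoxia mean. Complex II (118, 105 and 96.0 FPKM, against 162, 144 and 143 FPKM) stood at 71.1%. Complex V (792, 702 and 585 FPKM, against 990, 930 and 913 FPKM) stood at 73.4%. Complex IV had 1264, 994 and 1230 FPKM in hypoxia and 1432, 1467 and 1504 FPKM in normoxia, or 79.2%. Its largest member was COX4I1, with means of 441 FPKM in hypoxia and 552 FPKM in normoxia. Every hypoxia sum lay below every normoxia sum in each of the 4 complexes as deposited, but after median-ratio scaling, an alternative added after seeing the data, this held for complex III alone. Its scaled sums were 312, 279 and 298 in hypoxia, against 425, 424 and 441 in normoxia (69.0%). The scaled sums of complexes II, V and IV overlapped between the conditions, at 88.7%, 91.3% and 99.6% of the normoxia means.

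COX4I2 was the 1 member that rose. It had 21.9, 14.2 and 25.4 FPKM in hypoxia libraries 1, 2 and 3, against 1.63, 1.56 and 1.79 FPKM in normoxia, a 12.3-fold higher mean (log2 fold change 2.98, SE 0.22, limma adjusted p = 0.000439). Even the lowest hypoxia library was well above each normoxia library. The call held after scaling (3.23, adjusted p = 0.000414) and with each library left out (highest adjusted p 0.00695). The gene (ENSSSCG00000038384) lies on chromosome 17, 35341889 to 35346090, plus strand (Sscrofa11.1).

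COX4I1, the main isoform gene (ENSSSCG00000029034, chromosome 6, 3131019 to 3137530, minus strand), was the most abundant member. Its levels were 454, 333 and 535 FPKM in hypoxia and 507, 563 and 587 FPKM in normoxia, and the groups overlapped. Its log2 fold change was -0.35 (SE 0.19, limma adjusted p = 0.232), or -0.03 after scaling; without hypoxia library 3 it passed (adjusted p = 0.0307). An unnamed gene on the opposite strand overlaps it by 1220 bases, with 5.35 FPKM in hypoxia and 16.8 FPKM in normoxia on average.

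COX4I1 exceeded COX4I2 in every library, by 20.7, 23.4 and 21.0 times in hypoxia, against 311, 361 and 328 times in normoxia. As a share of their summed FPKM, COX4I2 made up 4.60%, 4.09% and 4.54% in hypoxia and 0.320%, 0.276% and 0.304% in normoxia. The means were 4.41% ± 0.28 and 0.30% ± 0.02 (SD, n = 3 each), and the difference was 4.11 percentage points (exact two-sided permutation test, p = 0.1, the smallest that 3 against 3 libraries can give). Hypoxia library 3 lay between the other hypoxia libraries in this share.

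**Figure D2:**
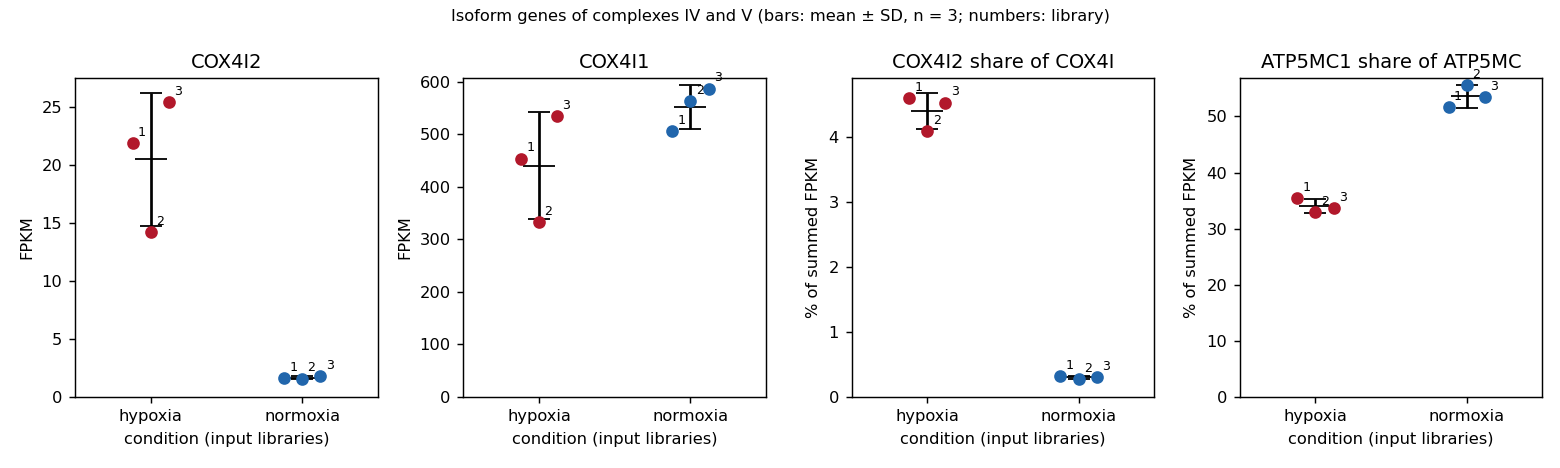
FPKM of COX4I2 and COX4I1, the share of COX4I2 in their sum, and the share of ATP5MC1 in the sum of the 3 c-ring genes (y axes) in hypoxia and normoxia input libraries (points, numbered by replicate, with mean ± SD, n = 3). COX4I2 and both shares separate the conditions without overlap, while COX4I1 values overlap.

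Among the other subunits of complex IV, COX5A and COX6A2 fell. COX5A, a nuclear-encoded subunit of the enzyme, had 92.5, 78.7 and 72.9 FPKM in hypoxia, against 136, 123 and 118 FPKM in normoxia (log2 fold change -0.62, SE 0.15, limma adjusted p = 0.0193). COX6A2, the heart and muscle isoform of subunit 6A, had 4.29, 4.49 and 4.89 FPKM in hypoxia, against 7.08, 7.15 and 6.38 FPKM in normoxia (-0.50, limma adjusted p = 0.0411). Neither group overlapped the other for these genes. Both calls were lost after scaling (adjusted p = 0.217 for COX5A and 0.401 for COX6A2). With normoxia library 1, 2 or 3 left out, COX5A had an adjusted p of 0.0871, 0.0835 or 0.0606. COX6A2 had 0.154 or 0.0709 with hypoxia library 1 or 2 left out, and 0.141, 0.171 or 0.108 with normoxia library 1, 2 or 3 left out.

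The other 8 tested subunits that were not called, beside COX4I1, lay between -0.34 (COX8A) and -0.09 (COX6C), and 7 of them overlapped between the conditions. After scaling they ran from -0.02 to 0.23. COX5B, a zinc-binding subunit, was the exception, with 118, 91.8 and 120 FPKM in hypoxia and 128, 141 and 130 FPKM in normoxia (-0.28, limma adjusted p = 0.221). Tissue isoforms kept a small part of their pairs: COX6A2 made up 5.88% to 7.89% of COX6A1 plus COX6A2 in hypoxia and 7.97% to 9.99% in normoxia. COX7A1, the heart and muscle isoform of subunit 7A, made up 1.27% to 4.72% of COX7A1 plus COX7A2 in hypoxia and 1.59% to 2.56% in normoxia, so these ranges overlapped.

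Of the 9 factors that build or join complex IV, COX10 and COX17 fell, and COX16 was called lower with the limit given below. COX10, which makes haem O on the way to the haem A of the enzyme, had 4.49, 3.63 and 4.66 FPKM in hypoxia, against 9.49, 11.8 and 10.5 FPKM in normoxia (log2 fold change -1.14, SE 0.16, limma adjusted p = 0.00321). It (ENSSSCG00000018023) lies on chromosome 12, 58011817 to 58109185, and its call held with each library left out (highest adjusted p 0.0291) and after scaling (0.0177). COX17, a copper chaperone, had 69.2, 58.4 and 38.0 FPKM in hypoxia, against 124, 117 and 103 FPKM in normoxia (-1.08, SE 0.23, adjusted p = 0.0146). Its call held after scaling (0.0392) but not without normoxia libraries 1 (0.0637) or 2 (0.0685).

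COX16, which acts in assembly of the COX2 subunit, was near the lower limit of the tested range, with 0.965, 1.26 and 0.862 FPKM in hypoxia and 2.37, 2.53 and 1.91 FPKM in normoxia (-0.69, limma adjusted p = 0.0197). COX16 passed the filter only through its normoxia values, so no weight is placed on its call. It was lost when hypoxia library 1 (0.0929), normoxia library 1 (0.0827) or normoxia library 2 (0.0999) was left out, and after scaling (0.0646). The other 6 factors overlapped between the conditions. COX11 (copper insertion, 0.18), COX19 (copper handling, 0.15) and COX7A2L (which joins complexes III and IV, 0.11) were 3 of the 5 members with a positive log2 fold change, beside COX4I2 and ATP5MK. COX14, COX15, which makes haem A, and COX18, which inserts COX2 into the membrane, had -0.25, -0.13 and -0.03.

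In complex III, UQCRC1, CYC1, UQCRQ and UQCR11 fell, CYC1 being its most abundant member over the 6 libraries. UQCRC1, core protein 1 (ENSSSCG00000011356, chromosome 13, 31298449 to 31309516), had 32.7, 29.6 and 39.5 FPKM in hypoxia, against 81.5, 91.4 and 94.4 FPKM in normoxia (log2 fold change -1.38, SE 0.16, limma adjusted p = 0.00145). CYC1, cytochrome c1 (ENSSSCG00000031918, chromosome 4, 606516 to 608996), had 50.7, 42.3 and 55.3 FPKM in hypoxia, against 106, 130 and 127 FPKM in normoxia (-1.27, SE 0.16, adjusted p = 0.00209). The small subunit gene UQCRQ (ENSSSCG00000014289, chromosome 2, 135186501 to 135188293) had 35.5, 29.5 and 26.1 FPKM in hypoxia, against 69.8, 68.6 and 60.4 FPKM in normoxia (-1.11, SE 0.16, adjusted p = 0.00336). For each of these 3 genes the hypoxia mean was 38.1% to 45.9% of the normoxia mean, and all 3 hypoxia libraries lay below every normoxia library. Their calls held with each library left out (highest adjusted p 0.0157, 0.0197 and 0.029) and after scaling (0.0123, 0.0172 and 0.013).

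UQCR11, another small subunit, had 5.62, 4.38 and 4.67 FPKM in hypoxia and 7.16, 7.37 and 7.37 FPKM in normoxia (-0.50, limma adjusted p = 0.048). It passed the threshold narrowly and was lost after scaling (0.399), with hypoxia library 1 (0.0847) or 2 (0.0974) left out, and with normoxia library 1 (0.134), 2 (0.172) or 3 (0.156) left out. It overlaps MBD3 on the same strand by 2901 bases, and MBD3 had 27.7 FPKM in hypoxia and 20.7 FPKM in normoxia on average, so reads of these genes may not be told apart.

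The Rieske iron-sulfur protein gene UQCRFS1 had 12.5, 13.1 and 6.51 FPKM in hypoxia and 21.1, 16.97 and 16.2 FPKM in normoxia. Its groups did not overlap, but hypoxia library 3 was far below the other hypoxia libraries, and the gene did not pass (log2 fold change -0.75, SE 0.27, limma adjusted p = 0.0806; 0.0314 without that library). UQCRB, UQCR10 and core protein 2, UQCRC2, had -0.47, -0.43 and -0.24 with overlapping groups. UQCRC2 had 34.0, 32.4 and 19.9 FPKM in hypoxia and 38.7, 32.4 and 29.3 FPKM in normoxia, so that the cores of the complex, UQCRC1 and UQCRC2, stood at 38.1% and 86.0% of their normoxia means. The factors for cytochrome b, UQCC1, UQCC2 and UQCC3, lay wholly below normoxia, as 34.9% of all tested genes did. They did not pass (limma adjusted p = 0.454, 0.115 and 0.31), and after scaling their log2 fold changes were 0.06, -0.18 and -0.01.

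In complex II, SDHA, SDHB and SDHC fell. SDHC, a membrane anchor that holds ubiquinone (ENSSSCG00000030318, chromosome 4, 89130379 to 89169118), had 7.28, 5.67 and 6.00 FPKM in hypoxia, against 12.7, 11.3 and 11.4 FPKM in normoxia (log2 fold change -0.81, SE 0.15, limma adjusted p = 0.00878, at most 0.0479 with a library left out, 0.0647 after scaling). The flavoprotein gene SDHA had 20.3, 17.4 and 22.6 FPKM in hypoxia, against 29.0, 32.3 and 30.8 FPKM in normoxia (-0.59, adjusted p = 0.0256). The iron-sulfur subunit gene SDHB had 42.8, 36.6 and 35.7 FPKM in hypoxia, against 60.4, 53.0 and 54.8 FPKM in normoxia (-0.54, adjusted p = 0.0287). SDHB was the most abundant member of the complex.

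The calls of SDHA and SDHB were each lost with any of 5 libraries left out, though the log2 fold changes stayed negative. With a library left out these were -0.50 to -0.68 for SDHA and -0.48 to -0.62 for SDHB. SDHA was lost with hypoxia library 1 or 2 left out (adjusted p = 0.089 or 0.0537), with normoxia library 1, 2 or 3 left out (0.0734, 0.121 or 0.0983) and after scaling (0.357). SDHB was lost in the same settings, at 0.0561 or 0.0564, at 0.118, 0.0946 or 0.0978, and at 0.382. SDHA overlaps PDCD6 on the same strand by 1703 bases. SDHD, the other anchor, overlapped between the conditions, with 38.4, 37.1 and 21.7 FPKM in hypoxia and 46.3, 32.4 and 31.1 FPKM in normoxia (-0.19, limma adjusted p = 0.646). The gene shares 6212 bases with DLAT on the same strand, so reads of these genes may not be told apart. DLAT had 7.25 FPKM in hypoxia and 15.6 FPKM in normoxia on average.

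The 3 assembly factors of complex II that the rule found each lay wholly below normoxia, as 34.9% of all tested genes did. SDHAF4 passed the filter only through its normoxia values, so its lack of overlap was part of passing. SDHAF1, which serves the iron-sulfur clusters of SDHB, was the 1 that passed, with 2.27, 2.16 and 3.01 FPKM in hypoxia and 3.76, 5.78 and 5.02 FPKM in normoxia (-0.74, SE 0.20, limma adjusted p = 0.0321). Its adjusted p was 0.123 or 0.0609 with hypoxia library 1 or 2 left out, 0.145 or 0.114 with normoxia library 2 or 3 left out, and 0.173 after scaling. SDHAF2, which adds FAD to SDHA, had -0.44 (adjusted p = 0.0655) and SDHAF4, a chaperone of flavinated SDHA, -0.32 (0.191).

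In complex V, ATP5MC1 had the lowest log2 fold change of all 52 tested members. It is 1 of 3 genes, with ATP5MC2 and ATP5MC3, that code for the c subunit of the proton-driven ring; in mammals their precursors differ in the targeting peptide and give the same mature protein. ATP5MC1 (ENSSSCG00000017544, chromosome 12, 25110528 to 25113478) had 33.5, 25.5 and 31.8 FPKM in hypoxia, against 87.2, 102 and 92.7 FPKM in normoxia (-1.61, SE 0.16, limma adjusted p = 0.000812, at most 0.0108 with a library left out, 0.00378 after scaling). ATP5MC3 had 20.4, 17.4 and 16.2 FPKM in hypoxia, against 32.5, 33.4 and 27.9 FPKM in normoxia (-0.77, SE 0.15, adjusted p = 0.0109). ATP5MC2 had 40.7, 34.4 and 46.3 FPKM in hypoxia and 49.1, 47.9 and 52.9 FPKM in normoxia (-0.31, adjusted p = 0.19, 0.0369 without hypoxia library 3). ATP5MC3 was lost without normoxia libraries 1 (0.0526) or 2 (0.0662) and after scaling (0.0824).

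The order of the c-ring genes differed between the conditions. ATP5MC1 made up 35.5%, 33.0% and 33.7% of their summed FPKM in hypoxia, against 51.6%, 55.6% and 53.4% in normoxia. ATP5MC2 made up 43.0%, 44.5% and 49.1% in hypoxia, against 29.1%, 26.1% and 30.5% in normoxia, so it was the most abundant of the 3 in each hypoxia library and ATP5MC1 in each normoxia library. ATP5MC3 ranged over 17.2% to 22.5% in hypoxia and 16.1% to 19.3% in normoxia, which overlap. These shares were chosen after the values were seen and are given without a test.

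ATP5F1A, the alpha subunit of the catalytic head, had 54.7, 52.5 and 38.9 FPKM in hypoxia, against 94.9, 88.0 and 79.8 FPKM in normoxia (-0.84, SE 0.17, limma adjusted p = 0.0117). ATP5ME, membrane subunit e, had 30.1, 26.3 and 18.5 FPKM in hypoxia, against 47.2, 38.9 and 38.2 FPKM in normoxia (-0.73, adjusted p = 0.0385). ATP5IF1, which blocks ATP hydrolysis when the enzyme runs backwards and was the most abundant of these genes over the 6 libraries, had 127, 105 and 103 FPKM in hypoxia, against 161, 157 and 156 FPKM in normoxia (-0.50, adjusted p = 0.0333). All 3 separated the conditions without overlap. ATP5F1A was lost without normoxia libraries 1 (0.0566) or 2 (0.0626) and after scaling (0.0565). ATP5ME had 0.0509 with hypoxia library 1 left out, 0.139, 0.114 or 0.094 with normoxia library 1, 2 or 3 left out, and 0.168 after scaling. ATP5IF1 had 0.0638 with hypoxia library 2 left out, 0.121, 0.124 or 0.11 with normoxia library 1, 2 or 3 left out, and 0.473 after scaling.

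For 4 stalk genes of complex V the hypoxia libraries lay further apart than the means of the conditions. ATP5PB, subunit b of the peripheral stalk, had 35.0, 36.7 and 16.9 FPKM in hypoxia and 42.4, 31.1 and 30.4 FPKM in normoxia (-0.28, SE 0.31, limma adjusted p = 0.558). The central stalk gene ATP5F1C had 39.0, 36.2 and 18.03 FPKM in hypoxia and 42.1, 33.8 and 29.3 FPKM in normoxia (-0.23, adjusted p = 0.636). ATP5PO, the subunit that ties the peripheral stalk to the head, had 138, 128 and 71.2 FPKM in hypoxia and 182, 135 and 134 FPKM in normoxia (-0.46, adjusted p = 0.273). The other central stalk gene, ATP5F1D, was highest in hypoxia library 3, with 64.8, 49.0 and 89.5 FPKM in hypoxia, against 72.0, 93.9 and 94.8 FPKM in normoxia (-0.39, adjusted p = 0.288, 0.0163 without that library). ATP5PF, another peripheral stalk subunit, had 24.1, 19.9 and 15.5 FPKM in hypoxia and 30.8, 27.1 and 28.4 FPKM in normoxia, without overlap (-0.54, adjusted p = 0.0733). Of the membrane subunits, ATP5MG overlapped between the conditions (-0.10). ATP5MK, membrane subunit k, had 147, 138 and 90.9 FPKM in hypoxia and 112, 109 and 115 FPKM in normoxia (0.13, adjusted p = 0.676).

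**Figure D3:**
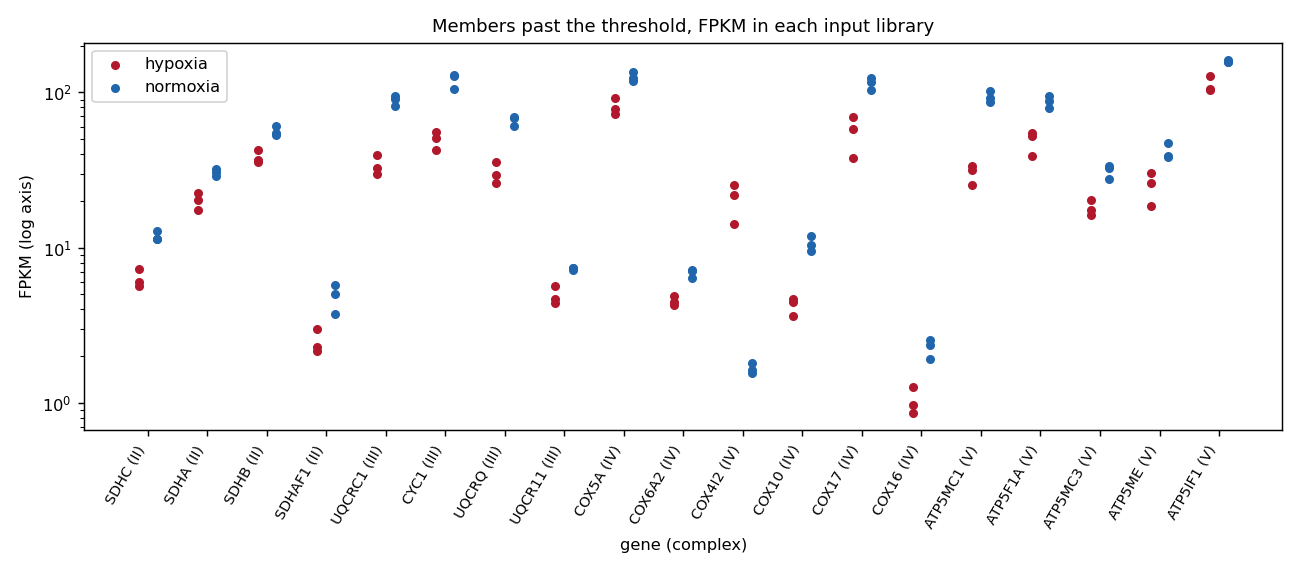
FPKM on a log axis (y) of the 19 members past the threshold (x, complex in brackets) in each hypoxia (red, left) and normoxia (blue, right) input library. Each member's groups are apart, and COX4I2 is the member whose hypoxia points lie above.

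Hypoxia library 3 lay below both other hypoxia libraries for 30 of the 52 tested members and above both for 18, where 55.5% and 36.1% of all tested genes did so, so the members' shares were near the background. Its log2 deviation from the mean of the other hypoxia libraries ran from -1.04 (ATP5PB) to 0.69 (COX7A1). For 28 members hypoxia library 3 was lower than the mean of the other hypoxia libraries while normoxia library 1 was higher than the mean of the other normoxia libraries, and for 17 the signs were the other way. Across the 52 members these deviations had a Pearson correlation of -0.83, and across all 10196 tested genes of -0.71. The points share the same 6 libraries, and genes are not independent. Hypoxia library 3 and normoxia library 3 correlated by 0.697 in the comparison of same-numbered libraries given below. ATP5PB, ATP5F1C, SDHD and ATP5PO were of the first kind, and COX4I1, COX8A, ATP5F1D and UQCC2 of the second. What sets these groups apart was not tested.

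**Figure D4:**
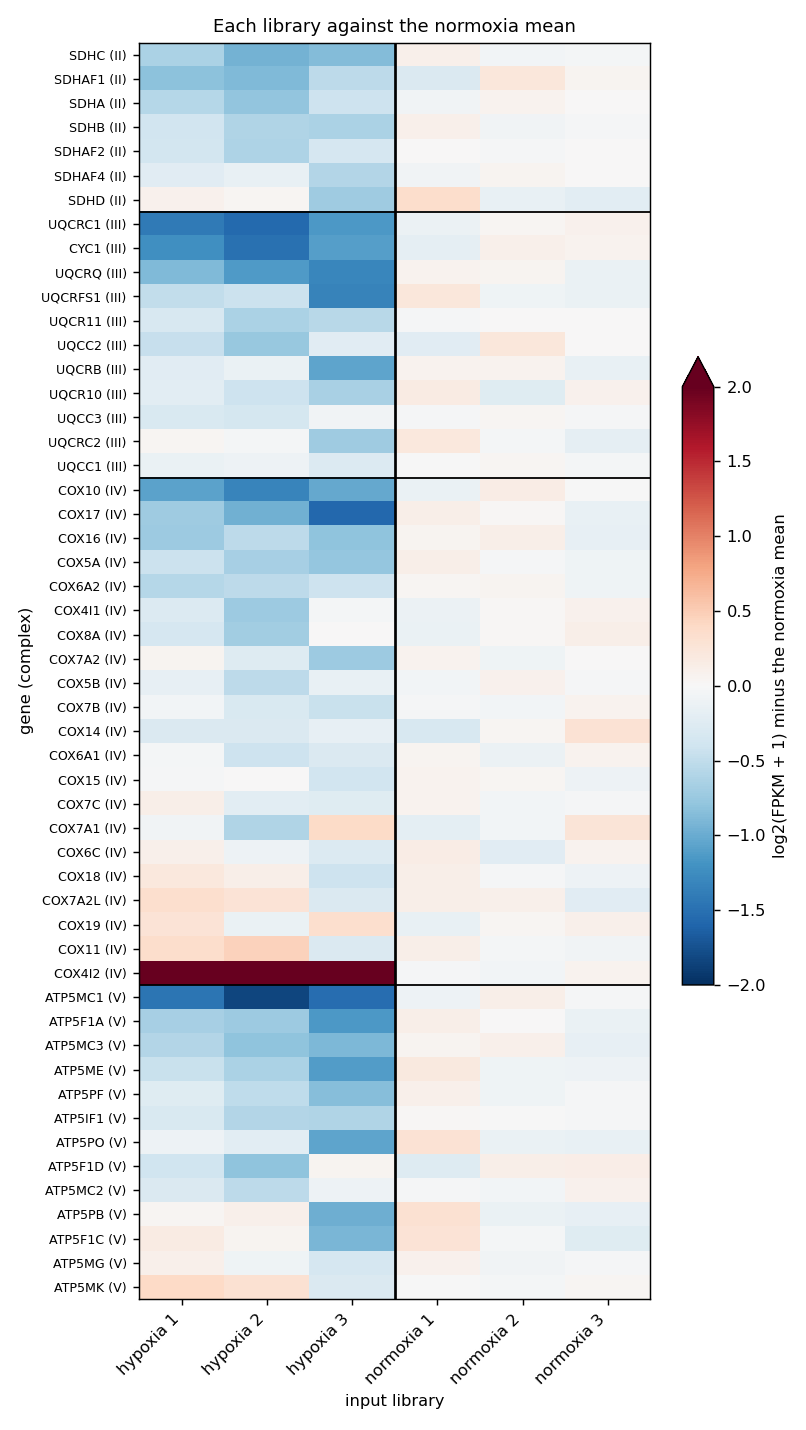
Log2(FPKM + 1) of each tested member (rows, complex in brackets) in each input library (columns), minus its normoxia mean, with colours limited to values between -2 and 2. ATP5MC1, UQCRC1, CYC1, UQCRQ and COX10 are low in all 3 hypoxia libraries, while UQCRB, ATP5PO, ATP5PB and ATP5F1C are low mainly in hypoxia library 3.

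In the authors' deposited table, 7 of the 53 members were marked significant and lower (8.72% of the 18060 genes) and COX4I2 significant and higher (4.75%). At a q-value under 0.05 in the authors' deposited table, the members were 6 lower (6.88% of genes) and 1 higher (6.84%), COX16 being left out (0.142). The 7 were UQCRC1, CYC1, UQCRQ, COX10, COX17, COX16 and ATP5MC1, and each was also lower in the limma fit. The authors' deposited table gives ATP5MC1 a log2 fold change of -1.63 (q-value 2.83e-05), UQCRC1 -1.39 (0.000916) and COX4I2 3.63 (1.72e-17). In the authors' deposited table the sign was the same as in the limma fit for 52 of the 52 tested members; both rest on the same libraries.

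Other genes of the pathway, from a list of 46 outside the name rule, were examined beside the members. Of the 37 tested, 12 were lower and 2 higher (21.1% and 5.4% of all tested genes), or 6 and 3 after scaling (8.88% and 8.07%). Both tested assembly factors of complex III fell: TTC19, which clears fragments of the Rieske protein, had 2.51 ± 0.18 FPKM in hypoxia and 6.66 ± 0.56 FPKM in normoxia (SD, n = 3 each; log2 fold change -1.12, limma adjusted p = 0.00277). BCS1L, which inserts the Rieske protein, had 3.91 ± 0.83 FPKM in hypoxia and 8.25 ± 0.03 FPKM in normoxia (-0.93, adjusted p = 0.00804, 0.0677 after scaling). Of 18 tested genes listed for complex IV assembly (with TIMMDC1, known for complex I) 7 were lower, among them COA6 and COA7, which passed the filter only through their normoxia values, so that no weight is placed on their calls. COA3 is an early factor of COX1 assembly and had 20.2 ± 2.7 FPKM in hypoxia and 57.7 ± 6.0 FPKM in normoxia (-1.47, limma adjusted p = 0.00117). The ferredoxin gene FDX2 had -1.26 (adjusted p = 0.0057). The ATP synthase factor ATPAF2 had 7.30 ± 0.33 FPKM in hypoxia and 18.9 ± 3.2 FPKM in normoxia (-1.25, adjusted p = 0.00238).

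The higher genes of that list were PDK1, the kinase that shuts off pyruvate dehydrogenase, and LONP1. PDK1 had 21.0 ± 10.6 FPKM in hypoxia and 2.00 ± 0.49 FPKM in normoxia (2.74, limma adjusted p = 0.00392). LONP1, a matrix protease known in mammalian cells to degrade the COX4I1 protein in hypoxia, had 55.0 ± 2.6 FPKM in hypoxia and 33.3 ± 2.0 FPKM in normoxia (0.71, adjusted p = 0.0077, 1.02 after scaling). PPRC1, a coactivator of nuclear genes for mitochondria, fell to 2.53 ± 0.93 FPKM in hypoxia, against 10.7 ± 1.5 FPKM in normoxia (-1.75, adjusted p = 0.00239). The calls of TTC19, BCS1L, COA3, FDX2, ATPAF2, PDK1, LONP1 and PPRC1 held with each library left out. Cytochrome c, CYCS, which carries electrons between complexes III and IV, had 26.2, 27.8 and 9.79 FPKM in hypoxia and 22.8, 20.0 and 15.2 FPKM in normoxia (0.02, limma adjusted p = 0.979; 0.48 and 0.0443 without hypoxia library 3). The count of lower genes was 7 when hypoxia library 1, normoxia library 2 or normoxia library 3 was left out. Calls in either direction over all tested genes were 1420, 1132 and 1394 there, against 2699 with every library. The count of higher genes was 6 without hypoxia library 3, where 11.2% of all tested genes were higher.

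The m6A peaks of the members come from the authors' peak lists, 1 per condition, whose enrichments (log2 of IP over input) are the authors' values. In the hypoxia list 25 of the 52 tested members had a peak (48.1%), against 79.8% of all tested genes. In the normoxia list 33 had one (63.5%), against 85.8%. Some listed peaks did not pass an adjusted p of 0.05 in the authors' lists. With that limit 23 members had a peak in hypoxia and 30 in normoxia. Among genes averaging at least 10 FPKM, a limit chosen after the values were seen, the members with a peak were 13 of 37 in hypoxia (35.1%, against 77.8% of such genes) and 20 of 37 in normoxia (54.1%, against 83.9%). The members' genes were short, with a median span of 8.58 kb, against 24.9 kb over the tested genes; the part of gene length in these shares was not tested.

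All 25 members with a peak in hypoxia also had one in normoxia, where 2.53% of all tested genes had one in hypoxia alone. A peak in normoxia alone was listed for 8 members (8.48% of all tested genes): UQCC2, COX6A1, COX6C, COX7A2, COX11, COX17, ATP5MC1 and ATP5PB. The normoxia peaks of ATP5MC1 and COX6C had adjusted p-values of 0.0759 and 0.1225 in the authors' list. Neither passed the limit on adjusted p given above, so no weight is placed on their listing in normoxia alone. Of the members listed in normoxia alone, COX17 and ATP5MC1 were lower in RNA, and the part of RNA level in the peak lists was not tested. COX4I1 and COX4I2 had no peak in either list, nor did UQCRC1, CYC1, COX10 or SDHA. Of the 18 members called lower, 10 had a peak in both lists, 2 in normoxia alone and 6 in neither. The median log2 fold change was -0.46 for members with a peak in both lists, -0.30 in normoxia alone and -0.34 in neither. Most of the members' peaks were annotated to 3′ UTRs, 26 of 30 in hypoxia (86.7%, against 43.7% of the list) and 34 of 43 in normoxia (79.1%, against 45.8%). Exonic peaks made up 1 of 30 in hypoxia (3.3%, against 35.8% of the list) and 3 of 43 in normoxia (7.0%, against 32.8%). The median log2 enrichment of the members' peaks was 1.75 in hypoxia and 1.40 in normoxia, against 2.27 and 2.08 over the lists.

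The peaks of 23 of the 25 members with a peak in both lists shared at least 1 base. SDHAF1 had a 3′ UTR peak of 1012 bases in hypoxia (chromosome 6, 45375318 to 45376329, log2 enrichment 3.58) and of 1042 bases in normoxia (45375288 to 45376329, 3.43). UQCRB had one over the same span in both lists (chromosome 4, 40403283 to 40409057, introns included), with 2.82 in hypoxia and 2.34 in normoxia. UQCRQ had a 3′ UTR peak at chromosome 2, 135187889 to 135188091 (0.93) in hypoxia, within that of normoxia, 135187773 to 135188235 (1.36). For COX14 the exonic peak covered the whole annotated gene in both lists (chromosome 5, 16021272 to 16021445, 2.25 in hypoxia and 1.98 in normoxia).

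The highest enrichment was that of UQCR11, 7.47 in hypoxia (chromosome 2, 76906644 to 76914168) and 4.90 in normoxia (76906644 to 76914138), but this peak began at the first base of MBD3 and ran past the annotated end of UQCR11 at 76909544. The signal of these genes cannot be told apart there. SDHC had 4 peaks in its 3′ UTR in hypoxia and 1 in normoxia. In UQCRC2 and COX5B the peaks of the lists did not overlap.

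Of the authors' differential peaks 2 fell in members, both lower in hypoxia and neither past an adjusted p of 0.05; 9.62% of the tested genes held such a peak. COX6A2 had a 5′ UTR peak with a log2 difference of -0.55 (chromosome 3, 17133505 to 17134451) and an adjusted p of 0.207 in the authors' deposited table. UQCC1 had an exonic peak with -0.62 (chromosome 17, 38747112 to 38760379) and an adjusted p of 0.26 there. RNA of COX6A2 was lower too, as given above, and RNA of UQCC1 had a log2 fold change of -0.17 that did not pass (limma adjusted p = 0.454).

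**Figure D5:**
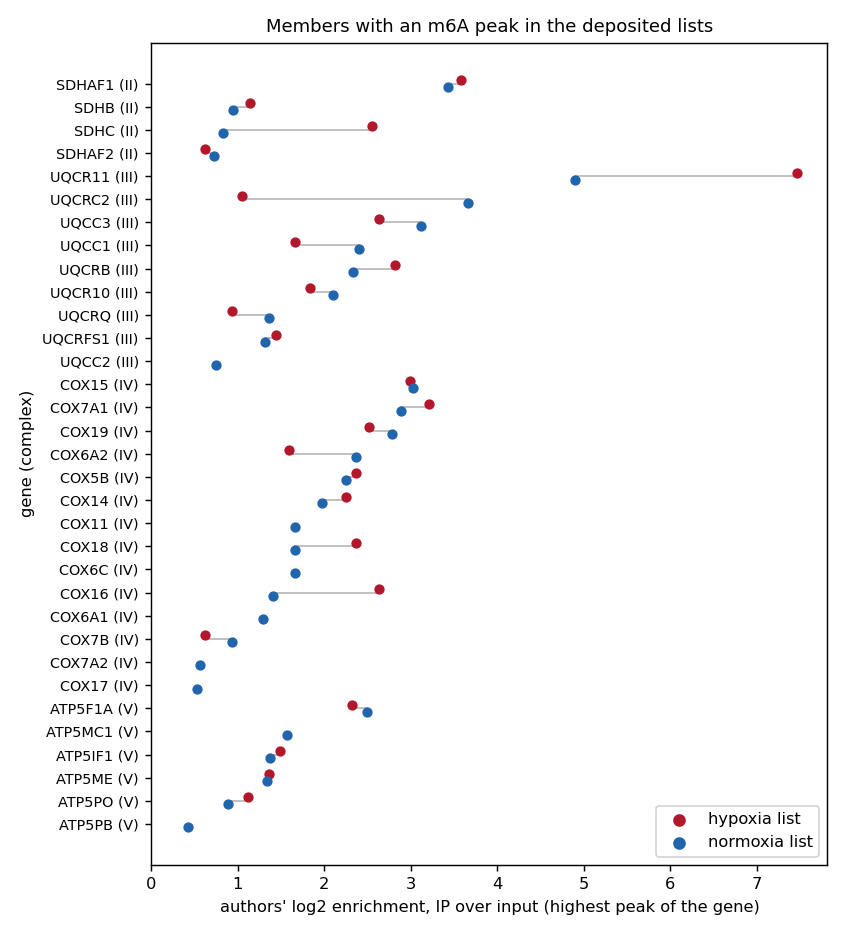
The authors' log2 enrichment of IP over input (x axis) for the highest peak of each of the 33 members with an m6A peak (rows, complex in brackets), in the hypoxia list (red, upper point) and the normoxia list (blue, lower point). The 8 rows with a blue point alone had no peak in the hypoxia list, and UQCR11, which overlaps MBD3, is farthest right.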

How the data were processed

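The submitters' processing notes name HOMER 4.10, edgeR 4.1, StringTie 2.1.2, HISAT2 2.0.4, FastQC and fastp 0.19.4 and the build Sscrofa11.1. They do not tie a tool to a table. The deposited FPKM of the 6 input libraries summed to 294929 to 326804 per library. FPKM hold no fragment counts: among 2344 low genes, 3 shared the commonest ratio of normoxia library 1 to normoxia library 2, so no steps of whole reads were seen and depth is unknown. No counting interval is given. The authors' deposited expression comparison holds log2 fold changes with p-values and q-values, and the genes it marks differ at least 2-fold with p under 0.05. The authors' deposited peak tables hold log2 enrichments with p-values and adjusted p-values; the caller and any pooling of replicates are not given.

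Positive values of the differential table were read as higher in hypoxia: 87 such peaks overlapped a peak of the same gene in the hypoxia list alone and 1 in the normoxia list alone, against 0 and 121 of the negative ones. Peak starts were counted from 0 (3369 begin 1 base before their gene) and are given from 1.

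limma 3.58.1 (R 4.3.3, trend and robust) was run on log2(FPKM + 1), which understates the change of low genes, and was tested on simulated data. Alternatives were a pseudocount of 0.1, no filter, median-ratio scaling, no trend, a replicate block and each library left out. Members were the 53 genes found by symbol. Full values go to COX4I1 and COX4I2, the called members of each complex (up to 6 subunits and 3 factors by size of change), the most abundant member of each complex and any that rose; further members named were chosen after their values were seen. The members and lists were chosen with earlier results of these data known. Overlapping genes (23 members overlap another listed gene, 5 on the same strand) and processed pseudogenes can share reads; how such reads were assigned was not given in the sources used here.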

Additional observations from a re-analysis of the deposited data

How the results depend on the processing

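The rise of COX4I2 held under every alternative run, and its share of COX4I1 plus COX4I2 stayed 4.01 to 4.27 percentage points higher in hypoxia with a library left out. Median-ratio scaling moved the members called lower to 6 in all, 0 in complex II, 2 in complex IV and 1 in complex V, the other genes of the pathway called lower to 6, all called genes to 1719 and the members' median log2 fold change to -0.067; dividing by the factors removes most of the shift shared by all genes. With a library left out, all called genes ranged from 1132 to 4329, members called lower from 6 to 25 (1 to 5 in complex II, 3 to 6 in complex III, 1 to 7 in complex IV and 1 to 7 in complex V), other genes of the pathway called lower from 7 to 15 and higher from 2 to 6, and the members' median from -0.45 to -0.35. At an adjusted p under 0.05 in the authors' table, 0 members had a differential peak (2 at an unadjusted p under 0.05). With the replicate block the count of members called lower was 18 (4, 4, 4 and 6 in complexes II to V), with UQCR11 (0.0556) and COX6A2 (0.0546) lost and UQCRFS1 (0.0227) and ATP5PF (0.0416) gained, and all called genes were 3463. Deviations of same-numbered libraries correlated by 0.586, 0.0398 and 0.697. Hypoxia libraries 1 and 3 correlated best with the normoxia library of the same number, and hypoxia library 2 with normoxia library 1 (0.641). With 3 libraries per condition these values cannot decide whether the numbers pair the samples. The labels do not say so, and the numbers were not taken as pairs. Among the 20 members given full values, which alone were followed through each alternative, 0 changed sign; of the members that were not called, 17 turned positive after scaling. Scaled sums of complexes II, IV and V overlapped between the conditions, as given above. The unknown depth leaves the counting error of low members, such as COX16 and SDHAF4, unmeasured.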

Other observations

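A further 7 genes of complexes II to V are in the expression table under an identifier or an older symbol, so the name rule did not take them; their identities come from the table's descriptions or from a table of gene names. COX20, a chaperone of the COX2 subunit, had 7.24, 8.68 and 3.69 FPKM in hypoxia, against 14.4, 16.1 and 12.1 FPKM in normoxia (log2 fold change -1.07, limma adjusted p = 0.0318, 0.0699 after scaling). It was lost without hypoxia library 1 (0.0749) and without normoxia libraries 1 (0.101), 2 (0.129) or 3 (0.0696). UQCC4, listed as C16orf91, had 6.10, 6.68 and 5.80 FPKM in hypoxia, against 9.92, 9.99 and 8.53 FPKM in normoxia (-0.54, adjusted p = 0.0328, 0.288 after scaling), and was lost without hypoxia library 1 (0.12) and without normoxia libraries 1 (0.123), 2 (0.149) or 3 (0.0772). ATP5PD, a peripheral stalk subunit of ATP synthase, had 79.9, 64.5 and 62.7 FPKM in hypoxia and 88.0, 88.8 and 86.2 FPKM in normoxia (-0.35, adjusted p = 0.12). ATP5MF, UQCC5 and UQCC6 had -0.18, -0.30 and -0.34 and did not pass, and SDHAF3 was too low to be tested.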
